A study of Mus musculus with 2 samples.

Results

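The binding of Msl1 and Nsl1 was measured at 40 genes of DNA replication in wild type mESCs, among 22359 protein-coding genes with an annotated TSS. The 40 genes were chosen by their roles in replication, by a rule that reads no measured value but that was written with earlier results of these data known. They are the Orc, Mcm and Gins subunits, the licensing factors Cdc6, Cdt1 and Gmnn, Mcm10, Cdc45 and Cdc7, Pcna and its loader, Rpa, the replicative polymerases with the primase, and Lig1 and Fen1. Msl1 is a subunit of the MSL complex and Nsl1 (also called Kansl1) of the NSL complex, and both complexes hold the histone acetyltransferase Mof. The study asked where each complex binds in mESCs and which genes and processes depend on it.

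Chromatin of 1 line of mouse embryonic stem cells (mESCs) was used, labelled E14 at passage P26, wild type, on the background 129P2/OlaHsd. These cells were fixed with formaldehyde, and per the study's methods they had been moved off feeder cells for a passage before use. Each antibody, anti-Msl1 or anti-Nsl1, had 1 ChIP-seq library, with no replicate culture and with library kits of different makers, so antibody, kit and library cannot be told apart. No RNA was measured in these files, and the identity of the cells was not checked with marker genes.

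The Msl1 library held 19483142 and the Nsl1 library 24883001 reads at distinct positions and strands of the nuclear chromosomes. Of the Msl1 reads 18.3% repeated a position and strand, and of the Nsl1 reads 4.56%, and such repeats were counted as 1 read. At each TSS the local level was the library's own number of reads per kb over the stretches from 5 to 50 kb away on both sides. The reads found within 500 bases were divided by it, and this quotient is called the ratio below. A ratio of 1 is thus the level of the surroundings, and a TSS with a ratio of at least 3 was called. The range after each ratio is the exact 95% Poisson interval of its read count, with the local level taken as fixed, and the ranges of medians come from the ranks of the genes. These intervals cover counting error only. With 1 library per antibody there was no replicate check, and no p-value is given for any difference.

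Replication starts at origins that the origin recognition complex (Orc) marks before S phase. Cdc6 and Cdt1 then load the Mcm2 to Mcm7 helicase onto the DNA, the kinase Cdc7 and the factors Mcm10, Cdc45 and Gins activate it, and the polymerases follow with the sliding clamp Pcna. Transcription of many of these genes is known to be driven by E2F factors as cells enter S phase. Cycling mESCs are known to spend much of their time in S phase.

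The promoters below are those of genes with high or low ratios and of genes with paired E2F letters. Orc5 (minus strand, chr5:22056164-22056393 of mm9), Rfc4 (minus strand, chr16:23127781-23127990) and Rfc3 (minus strand, chr5:152453788-152454017) had the 3 highest Nsl1 ratios of the 40 genes, and Mcm5 (plus strand, chr8:77633227-77633456) had the highest Msl1 ratio. Mcm6 (minus strand, chr1:130256204-130256433) and Gins1 (plus strand, chr2:150735130-150735359) show paired E2F letters next to a low or middling level of both proteins, and Pole2 (minus strand, chr12:70329148-70329377) had the lowest Msl1 ratio. Each sequence was read from the mm9 assembly, runs 5′ to 3′ on the strand of the gene from 200 bases before the TSS, and ends 30 bases into the transcript, or 10 bases for Rfc4. Capitals mark the letters searched for E2F (TTTCCCGC, TTTGGCGC, TTTCGCGC or TTTGGCGG), for Ets factors (CCGGAAG) and for NF-Y (CCAAT), on either strand.
Orc5: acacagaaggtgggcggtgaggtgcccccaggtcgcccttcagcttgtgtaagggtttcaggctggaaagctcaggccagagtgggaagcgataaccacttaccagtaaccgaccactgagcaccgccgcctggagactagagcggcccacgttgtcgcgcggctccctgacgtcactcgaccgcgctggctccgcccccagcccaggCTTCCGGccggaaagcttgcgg
Rfc4: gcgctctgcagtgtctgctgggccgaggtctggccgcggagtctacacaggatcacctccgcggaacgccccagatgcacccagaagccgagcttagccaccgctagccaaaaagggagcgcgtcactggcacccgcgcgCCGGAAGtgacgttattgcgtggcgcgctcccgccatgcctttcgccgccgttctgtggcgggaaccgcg
Rfc3: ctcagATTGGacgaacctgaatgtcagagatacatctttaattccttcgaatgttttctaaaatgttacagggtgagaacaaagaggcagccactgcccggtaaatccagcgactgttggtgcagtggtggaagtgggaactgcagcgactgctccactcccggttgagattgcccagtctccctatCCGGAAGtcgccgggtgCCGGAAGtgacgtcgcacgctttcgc
Mcm5: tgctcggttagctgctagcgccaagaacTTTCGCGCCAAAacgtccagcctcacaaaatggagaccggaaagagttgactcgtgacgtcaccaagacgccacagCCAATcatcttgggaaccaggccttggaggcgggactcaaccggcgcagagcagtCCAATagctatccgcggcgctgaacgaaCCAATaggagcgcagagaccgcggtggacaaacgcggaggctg
Mcm6: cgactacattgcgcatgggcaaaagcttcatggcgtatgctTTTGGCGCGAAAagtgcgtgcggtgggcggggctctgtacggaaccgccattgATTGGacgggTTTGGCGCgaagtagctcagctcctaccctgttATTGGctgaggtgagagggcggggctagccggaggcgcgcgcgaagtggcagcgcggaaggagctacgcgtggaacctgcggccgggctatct
Gins1: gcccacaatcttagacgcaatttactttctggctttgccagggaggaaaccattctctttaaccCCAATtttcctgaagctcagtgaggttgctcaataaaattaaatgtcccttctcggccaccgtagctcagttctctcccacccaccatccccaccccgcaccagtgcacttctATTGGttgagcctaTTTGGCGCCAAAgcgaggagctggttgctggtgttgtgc
Pole2: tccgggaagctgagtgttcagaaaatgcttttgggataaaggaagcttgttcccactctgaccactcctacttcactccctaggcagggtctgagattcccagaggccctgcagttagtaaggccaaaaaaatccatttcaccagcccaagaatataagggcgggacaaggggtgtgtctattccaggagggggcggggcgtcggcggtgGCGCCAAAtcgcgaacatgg
The printed promoters were picked, so they do not show how these letters go with the ratios over the 40 genes. Ets letters were also found at Mcm7, Mcm10, Rfc5 and Prim1, with Nsl1 ratios from 1.96 to 2.78 and no Nsl1 call. Orc6 and Rfc1 had no Ets letters and Nsl1 ratios of 6.57 and 6.42. The promoters with the 3 highest Nsl1 ratios held Ets letters near the TSS. Those of Mcm5, Mcm6, Gins1 and Pole2 held E2F letters and no Ets letters, and Mcm5, Mcm6 and Gins1 held NF-Y letters as well. In Rfc3 the E2F letters begin 24 bases after the TSS and run past the printed end.

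Over the 40 genes, the Nsl1 library stood above its surroundings more often than over protein-coding genes at large, and so did the Msl1 library. The Nsl1 ratio had a median of 3.60 (2.77 to 4.90) and ran from 0.795 at Fen1 to 14.3 at Orc5. The Msl1 ratio had a median of 2.66 (2.31 to 3.35) and ran from 0.813 at Pole2 to 8.65 at Mcm5. The windows held 12 to 142 Nsl1 reads and 10 to 107 Msl1 reads. All 40 genes passed the minimum of 2 reads per kb at the local level that 21527 protein-coding TSSs passed.

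A ratio of at least 3 was found at 22 of the 40 genes for Nsl1 (55%), against 24.3% of the TSSs tested. For Msl1 it was found at 17 of the 40 genes (42.5%), against 24%. Both libraries reached it at 14 genes (35%, against 11.9%). Neither did at 15 of the 40 genes, against 13692 of the 21527 TSSs tested. Without the 12 genes that have a divergent coding start, described further on, the Nsl1 count was 12 of 28 (42.9%, against 20.4% of all TSSs without one) and the Msl1 count 9 of 28 (32.1%, against 21.7%). The medians over all TSSs tested were 1.73 for Nsl1 and 1.88 for Msl1.

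Much of this background is made of TSSs without CpG-rich promoters, and 32 of the 40 genes (80%) had a CpG-rich one, against 44.7% of all. CpG-rich here means a G+C share of at least 0.5 and a ratio of observed to expected CpG of at least 0.6 in the 1 kb around the TSS. Over the 10002 CpG-rich TSSs the median ratio was 2.67 (2.62 to 2.71) for Nsl1 and 2.84 (2.81 to 2.88) for Msl1, with 43.0% and 45.0% of them called. Called in neither library were 3487 of the 9959 CpG-rich TSSs tested, beside 15 of the 40 genes. Of the CpG-rich TSSs without a divergent coding start 37.8% and 43.4% were called, and 23 of the 28 genes without one were CpG-rich. The interval of the Msl1 median of the 40 genes held this Msl1 median, and the interval of their Nsl1 median lay just above this Nsl1 median. The 32 CpG-rich members had medians of 3.92 for Nsl1 and 3.04 for Msl1. The other 8 (Mcm2, Mcm7, Mcm10, Orc4, Cdc45, Gins1, Prim1 and Fen1) had medians of 2.39 and 1.82, against 1.30 and 1.25 over the TSSs that were not CpG-rich.

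**Figure D1:**
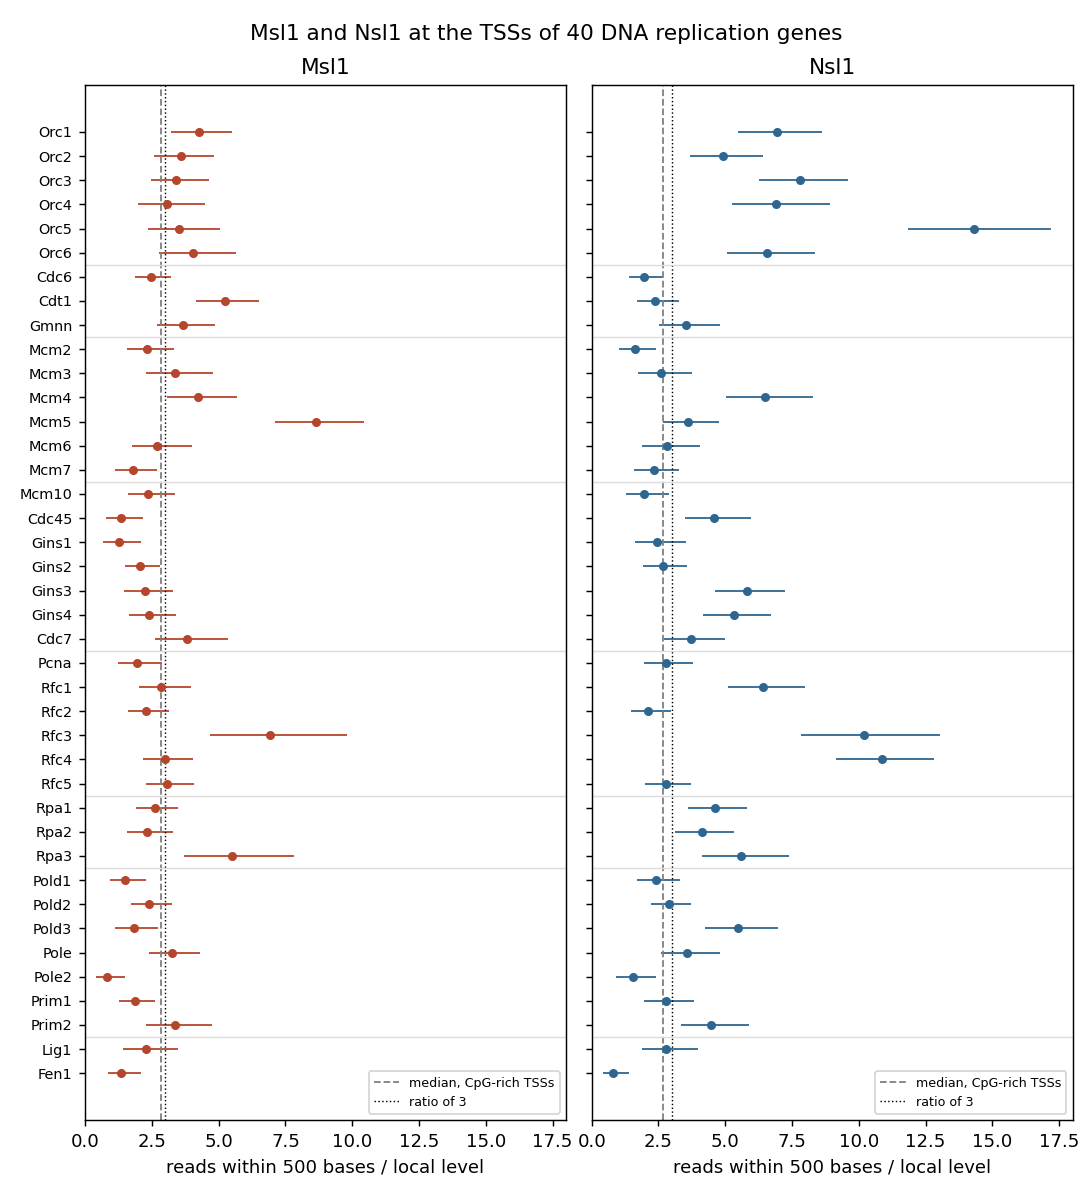
Ratio of the reads within 500 bases of the TSS to the local level for each of the 40 genes, grouped by role from top to bottom, for Msl1 (left) and Nsl1 (right). Points are the ratios, bars their exact 95% Poisson intervals, the dashed line the median over CpG-rich TSSs and the dotted line a ratio of 3; Orc1 to Orc6 lie to the right of 3 in both panels, and Orc5, Rfc4 and Rfc3 lie farthest right for Nsl1.

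Orc1 to Orc6 were the role group in which every gene was called in both libraries. Of CpG-rich TSSs 23.0% were called in both, and of all TSSs tested 11.9%. Of CpG-rich TSSs with a divergent coding start, described further on, 41.6% were called in both. Orc1, Orc3, Orc4 and Orc6 had such a start, and Orc2 and Orc5 faced noncoding genes at 39 and 62 bases. Orc4 was not CpG-rich. The Nsl1 ratios of the 6 genes ran from 4.9 to 14.3, with a median of 6.92, and their Msl1 ratios from 3.05 to 4.25, with a median of 3.54. The 6 genes lie at 6 separate loci on chromosomes 1, 2, 4, 5 and 8.

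Orc5, a subunit of the complex that binds ATP, had its TSS at 22056193 on chromosome 5. It held 116 Nsl1 reads, a ratio of 14.3 (11.8 to 17.2), and 29 Msl1 reads, a ratio of 3.5 (2.35 to 5.03). This Nsl1 ratio was above that of 99.5% of the TSSs tested, and its best window of 500 bases held 102 reads around a centre -50 bases from the TSS, next to the Ets letters printed above. The local level was low in both libraries, and over the mean level of the genome the ratios were 8.72 and 2.78, which ended the Msl1 call. At the genome level the Msl1 ratio of Orc4 was also under 3, at 2.40.

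Orc3 has a TSS (34562193 on chromosome 4) that lies 13 bases from that of Rars2, a gene of a mitochondrial tRNA synthetase on the other strand. There 89 Nsl1 reads gave a ratio of 7.78 (6.25 to 9.58) and 41 Msl1 reads gave 3.42 (2.45 to 4.64). Reads at such a shared promoter cannot be assigned to either gene.

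Orc1, the largest subunit and an ATPase, had its TSS at 108252059 on chromosome 4, 118 bases from that of the splicing factor gene Prpf38a on the other strand. The counts were 79 for Nsl1, a ratio of 6.93 (5.49 to 8.64), and 58 for Msl1, a ratio of 4.25 (3.23 to 5.5). The Nsl1 reads lay more on the side of Prpf38a, with 57 in the 500 bases before the TSS of Orc1 and 22 in the 500 bases after it, whereas the Msl1 reads lay more in Orc1, with 22 before and 36 after.

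Orc4, another ATP-binding subunit (48804796 on chromosome 2), faces Mbd5 at a distance of 234 bases. It had 58 Nsl1 reads at a ratio of 6.91 (5.25 to 8.94) and 25 Msl1 reads at 3.05 (1.97 to 4.5). At its most upstream annotated TSS the ratios were 2.03 and 2.30, so both calls hold for the TSS of the longest coding transcript and not for that one.

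Orc6, the smallest subunit (87823531 on chromosome 8), faces Vps35, a gene of endosomal sorting, at 119 bases. Its Nsl1 count was 65, a ratio of 6.57 (5.07 to 8.37), and its Msl1 count 33, a ratio of 4.03 (2.77 to 5.66). Orc2, a core subunit (58561953 on chromosome 1), had 54 Nsl1 reads at 4.9 (3.68 to 6.4) and 43 Msl1 reads at 3.58 (2.59 to 4.82). Of the 6 genes it was lowest for Nsl1, and its interval still lay above 3. With a window of 1000 bases the Nsl1 ratios of the 6 genes ran from 3.68 to 8.02, and Orc3 was no longer called for Msl1, at 2.96.

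The 3 licensing factors had higher Msl1 than Nsl1 ratios, but the intervals of both libraries lay apart at Cdt1 alone and overlapped at Gmnn and Cdc6. Cdt1, which brings the Mcm helicase to origins (125091915 on chromosome 8), held 82 Msl1 reads, a ratio of 5.24 (4.17 to 6.5) above 97.2% of the TSSs tested. Its Nsl1 ratio was 2.39 (1.71 to 3.25), from 40 reads. The Msl1 reads lay mostly past the start, with 67 in the 500 bases after the TSS and 15 before it.

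Gmnn, the gene of geminin, which binds and blocks Cdt1 after S phase begins, has its TSS at 24853792 on chromosome 13. Here 47 Msl1 reads gave 3.67 (2.7 to 4.88) and 40 Nsl1 reads 3.52 (2.52 to 4.8). With a window of 1000 bases the Nsl1 ratio was 2.82, under the level for a call. The Msl1 reads lay mostly past the TSS here too, with 43 after and 4 before it. The quotient of after to before was 10.8 (3.91 to 41.2) at Gmnn and 4.47 (2.52 to 8.42) at Cdt1, with overlapping intervals. Cdc6, the ATPase that acts with Cdt1 (98769465 on chromosome 11), was called in neither library, with 56 Msl1 reads at 2.46 (1.86 to 3.2) and 41 Nsl1 reads at 1.96 (1.41 to 2.66). Its surroundings were rich in reads, at 22.7 Msl1 and 20.9 Nsl1 reads per kb, and over the genome level its ratios were 5.37 and 3.08.

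The genes of the Mcm2 to Mcm7 helicase differed widely among themselves, although their products form 1 ring. Their Msl1 ratios ran from 1.79 to 8.65 and their Nsl1 ratios from 1.61 to 6.5. Of them 3 genes were called for Msl1 (Mcm3, Mcm4 and Mcm5) and 2 for Nsl1 (Mcm4 and Mcm5). These calls are 50% and 33.3%, against 45.0% and 43.0% of CpG-rich TSSs. Mcm2 and Mcm7 were not CpG-rich, and of such TSSs 5.89% were called for Msl1 and 8.20% for Nsl1. The Nsl1 call of Mcm5 was lost with a window of 1000 bases, at 2.43, and the Msl1 call of Mcm3 over the genome level, at 2.88.

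Mcm5 (77633427 on chromosome 8) stood out for Msl1. It held 107 Msl1 reads, a ratio of 8.65 (7.09 to 10.5) above 99.8% of the TSSs tested, beside 49 Nsl1 reads at 3.61 (2.67 to 4.77). Of the Msl1 reads at Mcm5 64 lay in the 500 bases before the TSS and 43 after it, and the interval of the quotient of after to before, 0.446 to 1.004, just held 1. The best Msl1 window of 500 bases was centred at -150 bases and held 68 reads, over the E2F and NF-Y letters printed above.

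Mcm4 (15637493 on chromosome 16) faces Prkdc, the gene of the catalytic subunit of DNA-dependent protein kinase, at 466 bases. It held 66 Nsl1 reads at 6.5 (5.03 to 8.27) and 43 Msl1 reads at 4.22 (3.06 to 5.69). Of the Nsl1 reads 48 lay before the TSS of Mcm4 and 18 after it, and of the Msl1 reads 9 and 34. The best Nsl1 window was centred -350 bases from the TSS, so much of the Nsl1 signal counted for Mcm4 lay between both genes.

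Mcm3 (20810359 on chromosome 1) had 30 Msl1 reads at 3.37 (2.27 to 4.81) and 29 Nsl1 reads at 2.61 (1.75 to 3.75). Mcm6 (130256233 on chromosome 1) had 25 at 2.71 (1.75 to 4.0) and 28 at 2.81 (1.86 to 4.06) in the same order, and Msl1 reads were nearly absent before its TSS, with 3 before and 22 after. The intervals of both subunits reach across 3 in both libraries, so at this depth their side of 3 was not settled. Mcm2 (88848774 on chromosome 6) had 30 Msl1 reads at 2.33 (1.57 to 3.32) and 23 Nsl1 reads at 1.61 (1.02 to 2.42), the lowest Nsl1 ratio of the helicase.

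Mcm7 (138613650 on chromosome 5) faces Ap4m1, a gene of vesicle transport, at 160 bases and was low in both libraries at its TSS. It held 23 Msl1 reads at 1.79 (1.14 to 2.69) and 33 Nsl1 reads at 2.32 (1.6 to 3.26). Farther into the gene Msl1 was high, with 43 reads in the window of 500 bases centred at 950 bases, a ratio of 6.7. The best Nsl1 window also lay inside the gene, centred at 1350 bases, with 27 reads at a ratio of 3.8. From 2 to 5 kb after the TSS Msl1 was still at 3.01 times the local level, the highest value of the 40 genes, and Nsl1 was at 0.704. With a window of 1000 bases the Msl1 ratio at the TSS was 2.997.

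The factors that activate the helicase had more calls for Nsl1 than for Msl1. Of Mcm10, Cdc45, Gins1 to Gins4 and Cdc7, 4 were called for Nsl1 and 1 for Msl1, with medians of 3.71 and 2.25. These calls are 57.1% and 14.3%, against 43.0% and 45.0% of CpG-rich TSSs. Of these 7 genes only 4 were CpG-rich (not Mcm10, Cdc45 and Gins1). Of the TSSs that were not CpG-rich 8.20% were called for Nsl1 and 5.89% for Msl1.

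Gins3 and Gins4 carried the highest Nsl1 ratios of this group, and both encode subunits of the 4-part GINS complex that joins the helicase. Gins3 (98157459 on chromosome 8) held 80 Nsl1 reads at 5.8 (4.6 to 7.22) and 26 Msl1 reads at 2.25 (1.47 to 3.29). Gins4 (24348140 on chromosome 8) held 72 at 5.34 (4.18 to 6.73) and 32 at 2.41 (1.65 to 3.4) in the same order. The Nsl1 reads of Gins3 lay mostly before the TSS (62 before and 18 after), and the Msl1 reads of Gins4 almost all after it (3 before and 29 after).

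Gins1 and Gins2 belong to the same complex and were called in neither library. At Gins1 (150735330 on chromosome 2) 14 Msl1 reads gave 1.25 (0.686 to 2.11) and 28 Nsl1 reads 2.45 (1.63 to 3.54). Its most upstream annotated TSS gave lower values still, 0.555 and 1.63. Gins2 (123113204 on chromosome 8) had 41 Msl1 reads at 2.06 (1.48 to 2.79) and 44 Nsl1 reads at 2.65 (1.93 to 3.56), amid a rich local level, and its ratios over the genome level were 3.94 and 3.31.

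Cdc45, which joins Gins on the active helicase (18812065 on chromosome 16), had an unequal pair of ratios, with 57 Nsl1 reads at 4.59 (3.48 to 5.95) and 17 Msl1 reads at 1.36 (0.789 to 2.17). A TSS of Ufd1l, a gene of protein degradation on the other strand, lies 140 bases inside Cdc45 and further ones lie upstream, so the transcripts of both genes overlap. The best windows were centred at -550 bases for Nsl1 (43 reads) and at 650 bases for Msl1 (30 reads), on opposite sides of the TSS. With a window of 1000 bases the Msl1 ratio was 2.67.

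Cdc7, the kinase that fires origins (107393341 on chromosome 5), was the gene of this group called in both, with 33 Msl1 reads at 3.81 (2.62 to 5.35) and 43 Nsl1 reads at 3.71 (2.69 to 5.0). Its Nsl1 ratio fell under 3 with a window of 1000 bases, to 2.63. Mcm10, which is needed to start DNA unwinding (4933837 on chromosome 2), had 31 Msl1 reads at 2.36 (1.61 to 3.35) and 25 Nsl1 reads at 1.96 (1.27 to 2.9). Mcm10 was thus called in neither library.

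Pcna, the sliding clamp, and Rfc1 to Rfc5, which load it, were split between very high and unremarkable Nsl1. Rfc4 and Rfc3 followed Orc5 in the order of Nsl1 ratios. With Rfc1 they made up the 3 Nsl1 calls of this group (50%, against 43.0% of CpG-rich TSSs).

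Rfc4 (23127790 on chromosome 16) held 142 Nsl1 reads, the highest Nsl1 count of the 40 genes, at a ratio of 10.9 (9.15 to 12.8). Its 43 Msl1 reads gave 2.995 (2.17 to 4.03), just under the level for a call. Over the genome level the Msl1 ratios of Rfc4, Rfc2 and Rfc1 were 4.13, 3.55 and 3.46, so all 3 gained the Msl1 call there. The Nsl1 reads lay mostly before the TSS, 110 against 32 after it, in the stretch that holds the Ets letters printed above.

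Rfc3 (152453817 on chromosome 5) had high ratios in both libraries, from 63 Nsl1 reads at 10.2 (7.84 to 13.0) and 31 Msl1 reads at 6.91 (4.69 to 9.8). Its surroundings were the poorest in reads of all 40 genes, with local levels of 4.49 Msl1 and 6.18 Nsl1 reads per kb. Over the genome level the ratios were 4.73 and 2.98, so the Msl1 call rests on the local level.

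Rfc1, the large subunit (65726803 on chromosome 5), had 81 Nsl1 reads at 6.42 (5.1 to 7.98) and 36 Msl1 reads at 2.86 (2.0 to 3.96). Rfc5 (117839056 on chromosome 5) had 43 at 2.77 (2.0 to 3.73) and 48 at 3.08 (2.27 to 4.08) in the same order, and of its Msl1 reads 4 lay before and 44 after the TSS. The quotient of these counts, 11 (4 to 42.2), was hardly above those of Gmnn, 10.8 (3.91 to 41.2), and Gins4, 9.67 (3 to 49.6). With a window of 1000 bases the Msl1 ratio of Rfc5 was 2.21, which ended its call. Rfc2 (135058560 on chromosome 5) had 33 Nsl1 reads at 2.12 (1.46 to 2.98) and 37 Msl1 reads at 2.28 (1.61 to 3.14). Subunits of 1 loader thus had Nsl1 ratios from 2.12 to 10.9. The intervals of Rfc1, Rfc3 and Rfc4 lay above those of Rfc2 and Rfc5, and within each of these groups neighbours in the order overlapped.

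Pcna itself (132079050 on chromosome 2) had 37 Nsl1 reads at 2.76 (1.95 to 3.81) and 24 Msl1 reads at 1.93 (1.23 to 2.87), and was called in neither. Its Msl1 reads were densest about 1 kb into the gene, with 22 in the window centred at 950 bases.

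All 3 genes of Rpa, the complex that coats single-stranded DNA, were called for Nsl1, and Rpa3 was called for Msl1. Of CpG-rich TSSs 43.0% were called for Nsl1 and 45.0% for Msl1. Rpa1 (75161812 on chromosome 11) faces Smyd4 at 123 bases and had 70 Nsl1 reads at 4.61 (3.59 to 5.82) and 46 Msl1 reads at 2.62 (1.92 to 3.49). Rpa2 (132324250 on chromosome 4) had 58 at 4.12 (3.13 to 5.32) and 30 at 2.31 (1.56 to 3.3) in the same order. The intervals of both genes overlapped in each library, and with a window of 1000 bases the Nsl1 ratio of Rpa2 was 2.59, which ended its call. Rpa3 (8209173 on chromosome 6), 115 bases from the annotated gene Gm16039, had 49 Nsl1 reads at 5.58 (4.12 to 7.37) and 30 Msl1 reads at 5.49 (3.7 to 7.83). Its local level was low, at 5.47 Msl1 reads per kb, and over the genome level the Msl1 ratio was 2.88 and the Nsl1 ratio 3.68. Rpa1, in richer surroundings, had an Msl1 ratio of 4.42 over the genome level, so the Rpa gene called for Msl1 depends on this choice.

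The polymerases and the primase had an Msl1 median of 1.86 with 2 of 7 genes called, and an Nsl1 median of 2.90 with 3 called. These calls are 28.6% and 42.9%, against 45.0% and 43.0% of CpG-rich TSSs. Prim1 was not CpG-rich. Pold1 to Pold3 encode subunits of polymerase delta, which copies the lagging strand, and Pole and Pole2 those of polymerase epsilon, which copies the leading strand.

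Pold3 (107270075 on chromosome 7) was called for Nsl1 alone, with 65 reads at 5.48 (4.23 to 6.99), beside 22 Msl1 reads at 1.81 (1.14 to 2.75). The catalytic subunit gene Pold1 (51804217 on chromosome 7) had 37 Nsl1 reads at 2.41 (1.7 to 3.32) and 22 Msl1 reads at 1.51 (0.947 to 2.29). Pold2 (5778295 on chromosome 11) had 62 at 2.9 (2.23 to 3.72) and 41 at 2.41 (1.73 to 3.26) in the same order. The surroundings of Pold2 were rich in reads, and over the genome level its ratios were 4.66 and 3.94.

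Pole (110715325 on chromosome 5), the catalytic subunit gene, faces Pxmp2, a gene of a peroxisomal membrane protein, at 120 bases. It was called in both, with 45 Nsl1 reads at 3.58 (2.61 to 4.79) and 47 Msl1 reads at 3.25 (2.39 to 4.32), and in neither with a window of 1000 bases (2.55 and 2.80). Pole2 (70329177 on chromosome 12) had the fewest Msl1 reads of the 40 genes, 10, at a ratio of 0.813 (0.39 to 1.5), and 18 Nsl1 reads at 1.53 (0.907 to 2.42). Neither library thus stood above its surroundings beyond counting error in the window at the TSS of Pole2. The promoter is nevertheless CpG-rich and holds E2F letters. Farther into the gene Msl1 was higher, with 15 reads in its best window, centred at 850 bases, a ratio of 2.44.

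Prim2, the large primase subunit (33726631 on chromosome 1), faces the annotated gene 1700001G17Rik at 57 bases and was called in both, with 51 Nsl1 reads at 4.47 (3.33 to 5.88) and 31 Msl1 reads at 3.35 (2.28 to 4.76). With a window of 1000 bases both were under 3, at 2.94 and 2.38, and over the genome level the Msl1 ratio was 2.98. Prim1, the catalytic primase subunit (127452228 on chromosome 10), had 37 Nsl1 reads at 2.78 (1.96 to 3.83) and 31 Msl1 reads at 1.86 (1.26 to 2.63), under 3 in both.

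Lig1, the ligase that seals Okazaki fragments (13864175 on chromosome 7), faces the annotated gene 6330408A02Rik at 105 bases. It had 30 Nsl1 reads at 2.8 (1.89 to 3.99) and 21 Msl1 reads at 2.27 (1.4 to 3.46). At its most upstream annotated TSS the ratios were 1.97 for Nsl1 and 3.14 for Msl1, which gave an Msl1 call and turned their order. Of the Nsl1 reads at the TSS used here 26 lay before and 4 after the TSS. Fen1, the nuclease that trims the flaps of these fragments, had the lowest Nsl1 ratio of the list, 0.795 (0.411 to 1.39) from 12 reads, beside 21 Msl1 reads at 1.36 (0.841 to 2.08). This value depends on the TSS: the rule took the start of the longest coding transcript (10275568 on chromosome 19), which lies inside the gene, and at the most upstream annotated start, 10278659, the ratios were 5.31 for Nsl1 and 2.92 for Msl1. The low place of Fen1 in the order is thus that of an internal start.

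**Figure D2:**
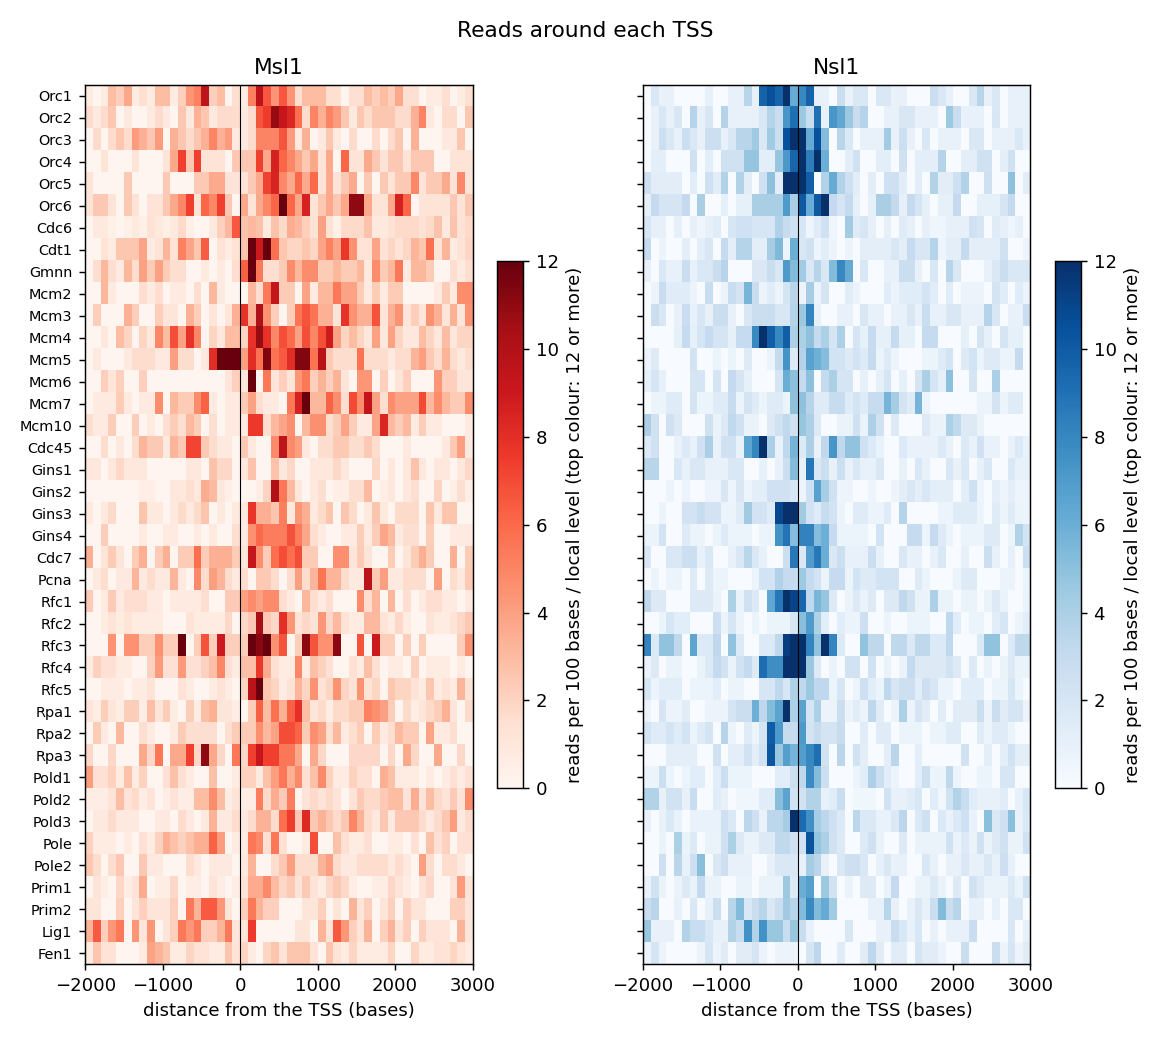
Reads per 100 bases divided by the local level, from 2000 bases before to 3000 bases after the TSS of each gene (horizontal axis in bases, 1 row per gene in the order of roles), for Msl1 (red) and Nsl1 (blue), with the darkest colour at 12 or more. Dark Nsl1 bins sit at or just before the TSS, as at Orc3, Orc5, Rfc3 and Rfc4, and at 32 of the 40 genes more Msl1 reads lie in the 500 bases after it than before it, Mcm5 being among the exceptions.

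Pooled over the 40 genes, Nsl1 peaked on the TSS and Msl1 past it. The Nsl1 maximum in bins of 100 bases was 7.24 times the local level (6.52 to 8.02), in the 100 bases before the TSS, against 5.20 over CpG-rich TSSs and 3.64 over all TSSs. The Msl1 maximum was 4.69 (4.11 to 5.33), from 200 to 300 bases after the TSS, against 4.54 over CpG-rich TSSs in the same bin. Just before the TSS, from -200 to -100 bases, Msl1 was at 1.53 (1.21 to 1.91), where Nsl1 was already at 5.50 (4.88 to 6.18).

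**Figure D3:**
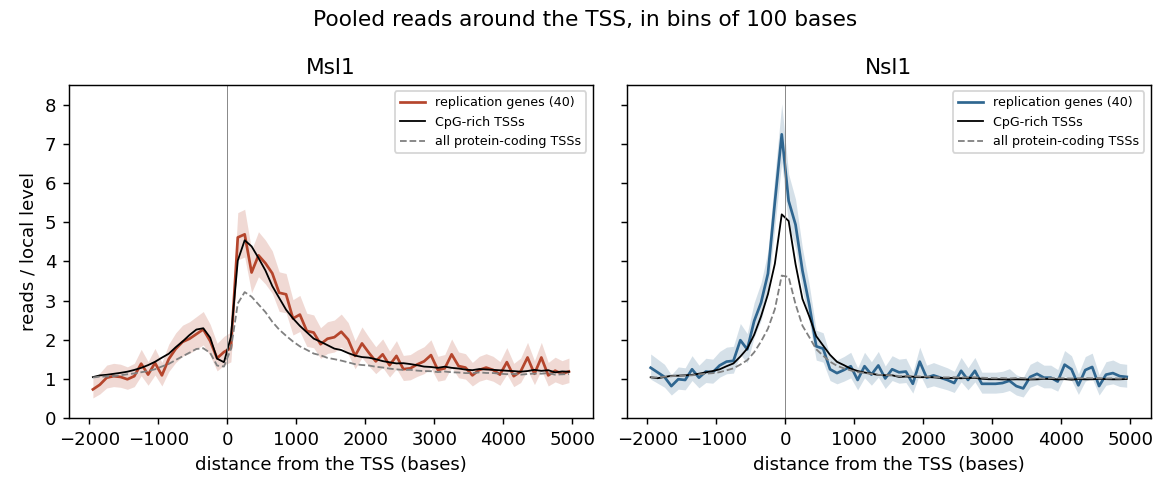
Pooled reads divided by the local level in bins of 100 bases from 2000 bases before to 5000 bases after the TSS, for Msl1 (left) and Nsl1 (right); coloured lines are the 40 genes, with shaded exact 95% Poisson intervals, and the black and dashed grey lines are CpG-rich and all protein-coding TSSs. Nsl1 of the 40 genes reaches 7.24 just before the TSS, above both other lines. Msl1 lies near the line of CpG-rich TSSs, which leaves the shaded interval in some bins. Examples are the bins from 300 to 400 bases (3.72 against 4.38) and from 1600 to 1700 bases (2.21 against 1.74). Other bins do so too, as from -1000 to -900 bases (1.09 against 1.55) and from 3200 to 3300 bases (1.63 against 1.29).

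Gene by gene the same order of positions was seen. The window of 500 bases with the most Msl1 reads was centred more than 100 bases after the TSS at 34 of the 40 genes, with a median centre of 350 bases. For Nsl1 the best window was centred within 300 bases of the TSS at 32 genes, with a median centre of -50 bases. Best windows were not counted over other TSSs, so no share stands beside these counts. More Msl1 reads lay in the 500 bases after the TSS than in the 500 before it at 32 of the 40 genes (80%, against 75.5% of the TSSs with at least 100 reads), and more Nsl1 reads at 21 (52.5%, against 50.6%). These shares of genes with more reads after the TSS lie near those of other TSSs.

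The reads per kb from 500 to 2000 bases after the TSS, divided by those within 500 bases of it, give the downstream ratio. Its median over the 40 genes was 0.847 (0.707 to 1.06) for Msl1 and 0.307 (0.264 to 0.407) for Nsl1. Over CpG-rich TSSs the medians were 0.750 and 0.444, and over all TSSs 0.789 and 0.543. The interval of the Nsl1 median thus lay below both, and that of the Msl1 median held both. Nsl1 medians were also low in the comparison lists described further on: 0.237 (repair), 0.299 (ribosomal), 0.354 (further replication) and 0.356 (cyclin, Cdk and mitosis). The 28 genes without a divergent coding start had 0.373 (0.267 to 0.523), an interval that held the 0.489 of CpG-rich TSSs without one. With such a start, the 12 genes had 0.264 and CpG-rich TSSs 0.282. At least as dense after as around the TSS was Msl1 at 17 of the 40 genes (42.5%, against 32.8%). For Nsl1 this was found at 1 gene (2.5%), Fen1, counted from its internal start. The Nsl1 share was 18% of all and 11.7% of CpG-rich TSSs that held 100 reads or more within 2 kb.

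The Msl1 downstream ratio was highest at Mcm7, at 2.84 (1.79 to 4.69) from 98 reads, the largest downstream count of the 40 genes. At Pole2 it was 2.4 (1.17 to 5.42) from 36 downstream reads, over the lowest count at the TSS. Larger downstream counts, as at Mcm5 (88 reads) and Rpa1 (84), stood over higher counts at the TSS and gave lower downstream ratios. Pold3, with 1.85 (1.12 to 3.16), was the other gene whose interval lay above 1. At the other end were Prim2 with 0.301 (0.148 to 0.583), Pole with 0.34 (0.199 to 0.568) and Rpa3 with 0.356 (0.181 to 0.673). Each of these 3 genes shares its promoter with a divergent gene, and at Pole and Prim2 the best Msl1 windows lay on the partner's side, centred -450 bases from the TSS at both. For Nsl1 the lowest downstream ratio was that of Orc5, 0.103 (0.0592 to 0.171), where the Nsl1 ratio at the TSS was highest. From 2 to 5 kb after the TSS the median level was 1.25 times the local level for Msl1 and 1.00 for Nsl1, against 1.24 and 0.992 over CpG-rich TSSs.

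To set both libraries against each other, the reads within 2 kb of the TSS were divided by the distinct reads of the library, and the Msl1 value by the Nsl1 value. Among the 14626 TSSs that held 100 reads or more, the median of this quotient was 1.28, and values are given relative to it. The 40 genes had a median of 1.12 (0.900 to 1.24), close to the 1.11 of CpG-rich TSSs. At least 1.5 times the median was reached at 5 genes (12.5%, against 15.9%) and at most 1/1.5 of it at 6 genes (15%, against 15.9%). The count of genes leaning to Msl1 was 3 with a window of 1000 bases (against 20.1% of the TSSs) and 2 per read at the local level (against 16.3%). As a list the 40 genes thus leaned to neither protein more often than other TSSs.

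Toward Msl1 leaned Mcm5, at 2.55 (1.97 to 3.32, 214 Msl1 and 84 Nsl1 reads within 2 kb), alone of the 40 genes past 2. Cdt1 followed at 1.87 (1.47 to 2.39), and Rfc2, Fen1 and Mcm10 lay between 1.51 and 1.60. The value of Fen1 was counted around its internal start and is not that of its most upstream TSS. Toward Nsl1 leaned Orc5, at 0.47 (0.35 to 0.63, 71 Msl1 and 151 Nsl1 reads), Rfc4 at 0.54 (0.42 to 0.69), Gins1 at 0.55 (0.35 to 0.83) and Gins3 at 0.58 (0.43 to 0.78), and Prim2 and Rfc1 at 0.63 and 0.63. The intervals of the 5 genes lay above 1 and those of the 6 genes below it. As these genes were picked by the same value, their intervals are no further support. Genes that did not reach the limits also had intervals away from 1, as Orc1 (1.07 to 1.77), Mcm7 (1.12 to 1.87) and Orc3 (0.568 to 0.948).

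Away from TSSs the quotient of the libraries moved with base composition, from 0.947 to 1.02 in bins of 30 to 55% G+C to 1.44 in bins of at least 60%. The relative Msl1 to Nsl1 value had a Spearman correlation of 0.460 with the G+C share around the TSS over all TSSs and of 0.100 over the 40 genes, whose G+C shares ran from 0.475 to 0.653. The part of base composition in the differences between the libraries was not tested.

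**Figure D4:**
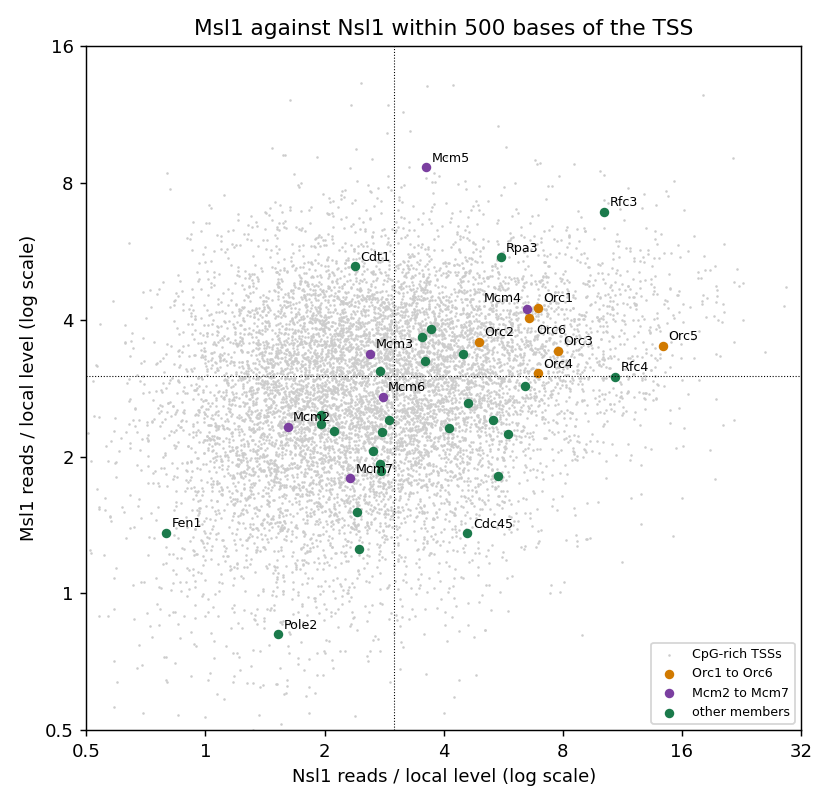
Msl1 ratio (vertical, log scale) against Nsl1 ratio (horizontal, log scale) within 500 bases of the TSS for the 40 genes, coloured by Orc1 to Orc6, Mcm2 to Mcm7 and the others, over CpG-rich TSSs in grey, of which those beyond the axes are not drawn. Dotted lines mark a ratio of 3; Mcm5 and Cdt1 lie high, Orc5 and Rfc4 far right, and Pole2 and Fen1 lie at the lower left.

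Across the 40 genes the ratios of both libraries had a Spearman correlation of 0.532, against 0.255 over CpG-rich TSSs and 0.614 over all TSSs. The points of 1 library share its depth and its bias for base composition, and no p-value is given. The genes with the highest Msl1 ratios were in part others than those with the highest Nsl1 ratios. Mcm5 and Cdt1 stood on one side and Orc5 and Rfc4 on the other, although Mcm5 and Orc5 were called in both libraries.

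The promoters were searched for 9 kinds of letters from 250 bases before to 50 bases after the TSS on both strands. E2F letters, as listed above, were found at 15 of the 40 genes (37.5%), against 2.97% of all protein-coding TSSs and 5.11% of CpG-rich ones. The 15 were Mcm3 to Mcm6, Orc1, Orc3, Orc4, Cdc6, Cdt1, Gins1, Gins3, Rfc3, Pole, Pole2 and Lig1. Ets letters were found at 17 genes (42.5%, against 10.9% and 18.9%) and NF-Y letters at 24 (60%, against 37.6% and 36.9%). A match is a description of these letters and not a measured site, and several E2F letters overlap their own reverse strand, as in Gins1 and Mcm6.

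Sp1 letters (GGGCGG) were found at 28 genes (70%, against 44.6% of all and 74.0% of CpG-rich TSSs). Fewer genes held letters of the cell cycle homology region (TTTGAA or TTCGAA, 5 genes), Yy1 (AAGATGG, 4 genes), the E box (CACGTG, 4 genes), Nrf1 (GCGCATGCG, 3 genes) or the TATA box (TATAAA, 2 genes), which were found at 17.4%, 6.85%, 7.75%, 2.10% and 13.4% of all TSSs. In CpG-rich TSSs these shares were 11.0%, 7.31%, 11.1%, 3.95% and 5.56%, and in the 40 genes 12.5%, 10%, 10%, 7.5% and 5%.

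The Nsl1 medians were higher with than without Ets, NF-Y, E box, cell cycle homology region, Yy1 and Sp1 letters. With E2F, Nrf1 and TATA letters they were lower than without. The 17 genes with Ets letters had a median Nsl1 ratio of 5.58 and a median Msl1 ratio of 3.05. The 23 genes without had medians of 2.80 and 2.46. Over CpG-rich TSSs the same split gave 4.40 and 3.06 with and 2.36 and 2.79 without, so the Nsl1 medians differed in the same direction there. With and without NF-Y letters (24 and 16 genes) the Nsl1 medians were 4.29 and 2.76, against 2.81 and 2.55 over CpG-rich TSSs. With and without the E box (4 and 36 genes) they were 4.97 and 3.21, against 3.17 and 2.61. For the cell cycle homology region (5 and 35 genes) they were 4.59 and 3.52, against 2.96 and 2.63. Yy1 letters (4 and 36 genes) gave 3.86 and 3.55, against 3.42 and 2.60. Sp1 letters (28 and 12 genes) gave 3.65 and 3.20, against 2.48 and 3.42, the other way. Nrf1 letters (3 and 37 genes) gave 2.90 and 3.61, against 3.70 and 2.62, the other way. TATA letters (2 and 38 genes) gave 3.46 and 3.60, against 2.33 and 2.68. For E2F letters the Nsl1 medians were 3.58 with and 3.71 without, and the Msl1 medians 3.25 and 2.41. In CpG-rich TSSs the Msl1 medians by E2F letters were 2.99 and 2.84 and the Nsl1 medians 2.88 and 2.65, so the Nsl1 medians differed in the opposite direction there.

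Divergent partners were also frequent at the 40 genes. A TSS of a protein-coding gene on the other strand lay within 1 kb upstream at 12 of them (30%), against 8.82% of all TSSs and 16.3% of CpG-rich ones. Starts of every annotated transcript of protein-coding genes were used, also of their noncoding transcripts. The 12 genes were Mcm4, Mcm7, Orc1, Orc3, Orc4, Orc6, Cdc45, Rpa1, Rpa3, Pole, Prim2 and Lig1. Noncoding partners, at Orc2, Orc5, Gins2, Pcna and Rfc5, were not counted. The median Nsl1 ratio of the 12 genes was 5.09 and their median Msl1 ratio 3.30, whereas the other 28 genes had 2.79 and 2.41. Over CpG-rich TSSs the medians were 4.11 and 3.07 with such a partner and 2.43 and 2.80 without.

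Ets letters and a divergent start were partly found at the same genes. With both (6 genes) the Nsl1 median was 6.71, with Ets letters alone (11 genes) 5.34, with a divergent start alone (6 genes) 4.53 and with neither (17 genes) 2.61. The CpG-rich TSSs in the same 4 classes had 5.25, 4.18, 3.72 and 2.21, in the same order. Of the 17 genes with neither, 4 were called for Nsl1 (Mcm5, Orc2, Rfc1 and Cdc7), a share of 23.5%, against 30.8% of the CpG-rich and 15.8% of all TSSs with neither.

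**Figure D5:**
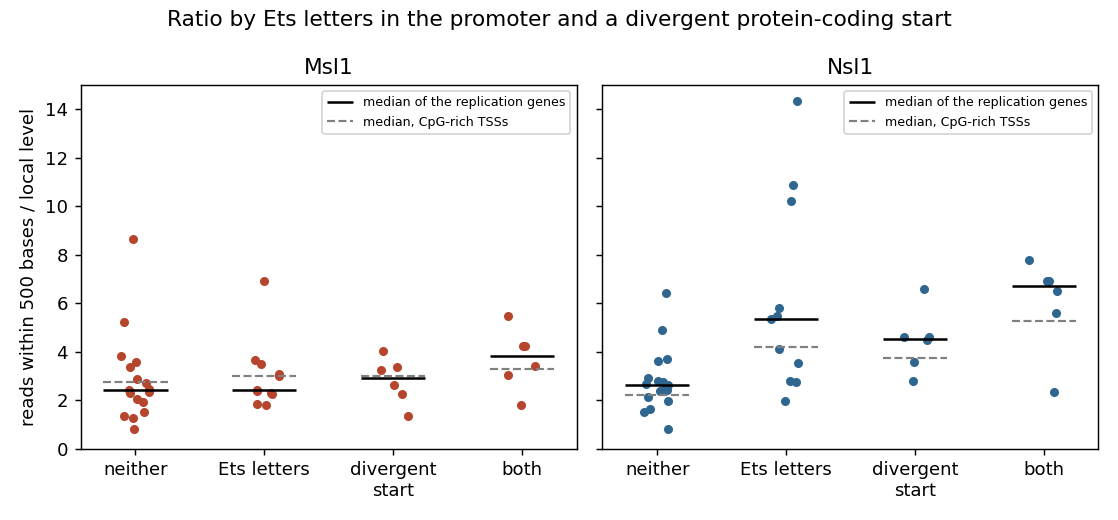
Ratio of the reads within 500 bases of the TSS to the local level, for Msl1 (left) and Nsl1 (right), with the 40 genes split by Ets letters in the promoter and by a divergent protein-coding start within 1 kb; each point is a gene, black lines are medians of the replication genes and dashed lines medians of CpG-rich TSSs. The Nsl1 medians run from 2.61 with neither to 6.71 with both, and 4 of 17 genes with neither lie above 3.

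For comparison, 39 further replication genes (among them the other polymerase subunits, the checkpoint mediators, the chromatin assembly factors and the enzymes of nucleotide supply) had medians of 3.12 for Nsl1 and 2.73 for Msl1, with 22 and 16 of 39 called and 10 called in both. Those calls are 56.4%, 41.0% and 25.6%, against 43.0%, 45.0% and 23.0% of CpG-rich TSSs. The highest Nsl1 ratio among the 39 genes was 9.34 at Mcm8, a helicase of recombination. The highest Msl1 ratio was 7.83 at Rrm2, the small subunit of ribonucleotide reductase. The lowest were 1.31 for Nsl1 at Dna2, a nuclease, and 1.46 for Msl1 at Dut, which removes dUTP. E2F letters were found at 33.3% of these promoters.

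DNA repair genes (31) had medians of 4.84 for Nsl1 and 3.11 for Msl1, with 26 and 17 called, and genes of cyclins, Cdks and mitosis (28) had 2.81 and 3.17, with 13 and 15 called. Cytosolic ribosomal protein genes (80) had 3.58 and 3.45, with 55 and 51 called, and their Msl1 downstream ratio was 1.36. The shares called for Nsl1 and Msl1 were 83.9% and 54.8% (repair), 46.4% and 53.6% (cycle) and 68.8% and 63.8% (ribosomal). Of CpG-rich TSSs 43.0% and 45.0% were called. The intervals of the medians were 3.97 to 5.79 (repair), 1.77 to 3.87 (cycle) and 3.33 to 3.79 (ribosomal) for Nsl1, and 2.64 to 3.32, 2.35 to 3.59 and 3.13 to 3.74 for Msl1. Each of them overlapped the interval of the 40 genes in the same library, so the place of the 40 genes among these lists by ratio was not settled. On 2 other measures the ribosomal genes lay above the 40 genes. Their median Msl1 downstream ratio had an interval of 1.19 to 1.56, against 0.707 to 1.06. Their median relative Msl1 to Nsl1 value had one of 1.49 to 1.72, against 0.900 to 1.24.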

How the data were processed

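The data were 2 ChIP-seq libraries of mESCs, 1 for each antibody. The authors called bases with CASAVA 1.8.2 and aligned the single-end reads to mm9 with Bowtie 0.12.7, keeping unique reads. They deposited 1 line per aligned read with its start, end and strand, and with an alignment score. This deposited score is 255 on every line and was not used. No Input library was used here, and no peaks were called.

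Reads of 50 bases (Msl1) and 36 bases (Nsl1) were reduced to 1 per position and strand and moved by 107 and 65 bases to the fragment middle, from fragment lengths of 215 and 130 bases at which read starts on both strands paired most often in a moving mean over 5 distances, in steps of 5 bases. TSSs came from a GENCODE annotation of mm9, at the start of the coding transcript with the longest coding sequence. Counts were made with Python 3.11.15 and its packages pandas 2.3.3, numpy 2.4.6 and scipy 1.17.1, figures with matplotlib 3.10.9, and the counting was tested on simulated data. The 39 further genes hold Ticrr under its older name 5730590G19Rik.

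All members are named in the text. Of the 39 further genes those with the highest and lowest ratios are named, and so are genes within 1 kb of a member TSS on the other strand. No gene of the other comparison lists is named for its value. The members and lists were chosen with earlier results of these data known. Alternatives were all reads kept, read starts not moved, windows of 1000 bases, the genome level or 10 to 50 kb as local level, the most upstream TSS, a downstream window from 1000 bases, and other limits for calls. Leaving out Fen1, or members with a divergent coding start, was added after seeing the data.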

Additional observations from a re-analysis of the deposited data

How the results depend on the processing

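The medians of the ratios, the downstream ratios and the Msl1 to Nsl1 quotient, and the counts of genes called or leaning, moved by less than their interval or by less than 1.5 times with all reads kept, read starts not moved, the most upstream TSS, the genome level, a local level from 10 to 50 kb or Fen1 left out, as far as each applies. Without the members that have a divergent coding start, 9 of 28 genes were called for Msl1 (21.7% of all TSSs without one) and 12 for Nsl1 (20.4%), and the medians and leaning counts moved by less than these limits. With a window of 1000 bases the median Nsl1 ratio was 2.57 and 3 genes leaned to Msl1 (20.1% of all TSSs). A limit of 2 in place of 3 called 31 genes for Msl1 (46.7% of all TSSs) and 35 for Nsl1 (41.9%). From 1000 to 2000 bases the median Msl1 downstream ratio was 0.705. Per read at the local level, the median Msl1 to Nsl1 quotient, not divided by the median of all TSSs, was 1.11 in place of 1.42, and 2 genes leaned to Msl1 (16.3% of all TSSs). With a fold of 2, 1 gene leaned to Msl1 and 1 to Nsl1 (4.59% and 4.89% of all TSSs).

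Of the 80 ratios of single genes, 31 moved beyond their interval with the window of 1000 bases, 21 with the genome level and 5 with the most upstream TSS. No paired analysis was possible because each antibody had 1 library. Ratios rest on as few as 10 reads, so calls near 3 are not settled at this depth. Msl1 and Nsl1 differ in antibody, kit, read length and repeated reads, and the cause of differences between the libraries was not tested.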
